A study of Mus musculus with 4 samples.

Results

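The genes of the proteasome, the protease that degrades ubiquitin-tagged proteins, were examined in RNA of mouse late 2-cell (2C) embryos. The members were the rows of the gene table whose symbol opens with *Psm*, a letter from a to g and a digit, which gave 50 of 26022 genes. They comprised 14 subunits of the constitutive core, 9 of the base, 8 of the lid, 6 regulators that bind the core, 7 assembly chaperones and 6 other genes. Of these 6, *Psma8*, *Psmb9*, *Psmb10* and *Psmb11* encode core subunits used in particular tissues. The remaining pair, *Psmc3ip* and *Psme3ip1*, share only the opening of the symbol and encode proteins named for binding a proteasome protein. *Psmb8* was not analysed here.

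All 4 libraries came from ICR embryos, collected as zygotes from mated females of 7 to 8 weeks after superovulation and cultured to the late 2C stage. The 2 Control libraries came from embryos cultured without drug, and the 2 Mdivi-1 libraries from embryos given 200 μM Mdivi-1 for 16 h, with 8 to 10 embryos in a group according to the methods. Mdivi-1 is a small molecule used to inhibit DRP1, the GTPase that divides mitochondria, and the comparison asks how RNA levels of late 2C embryos differ when it is present. The sources do not say whether the solvent was added to the controls or whether each library stands for another litter. The p-values below therefore judge group differences against the spread between these libraries, which may be technical.

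In the proteasome, stacked rings form the core. The α-ring subunits (*Psma* genes) gate the entry, and some of the β-ring subunits (*Psmb* genes) carry the protease sites. A regulatory particle caps it: the ATPases of the base (*Psmc* genes) unfold the substrate, and the lid removes the ubiquitin chain. Other proteins can occupy the same face of the core, namely the activators encoded by *Psme* genes and the inhibitor PI31 encoded by *Psmf1*. In early embryos, ubiquitin-dependent degradation clears proteins stored in the oocyte while the embryonic genome begins to be transcribed.

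Library totals ranged from 17712075 to 20077326 counts, with 14793 to 16311 genes detected, and Control replicate 2 had the fewest genes. Levels are given as CPM (counts scaled to a common library size) after TMM normalisation, and differences as log2 fold changes of Mdivi-1 over Control from edgeR. The 2C markers summed to 968 and 1544 CPM in the controls and to 2347 and 2987 CPM in the Mdivi-1 libraries, with all 8 listed genes present. The 6 oocyte-stored markers summed to 1447 and 2991 CPM in the controls and to 3389 and 4423 CPM with Mdivi-1, and these sums moved in the opposite direction to most proteasome genes. Markers of cumulus and granulosa cells summed to 20.3 to 34.8 CPM with *Has2*, *Ptx3* and *Inha* at 0, those of sperm to between 0 and 6.07 CPM with *Tnp2* at 0, and those of blood to 48.1 to 60.5 CPM with *Hbb-bs* at 0. The part of these marker differences in the results was not tested. In such bulk libraries fewer cells with an RNA and less of it per cell cannot be told apart.

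Most proteasome genes had less RNA in the Mdivi-1 libraries, and *Psmf1*, which encodes the inhibitor, had more. Summed over all members, the level was 6332 and 8346 CPM in Control and 4362 and 4889 CPM in Mdivi-1 libraries, so that the groups did not overlap. As raw counts, before TMM normalisation, the members made up 0.693% and 0.696% of all counts in the controls and 0.459% and 0.507% with Mdivi-1. The TMM factors of the controls were 1.10 and 0.834, so that the controls differed more in CPM than in raw share. Of the 50 members, 49 passed the filter on low counts. *Psme2b* did not, with 7, 6, 6 and 11 counts in Control 1, Control 2, Mdivi-1 1 and Mdivi-1 2, the order used throughout.

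Of the 49 tested members, *Psma8* passed the filter only through the Mdivi-1 libraries and *Psmb11* only through the controls. Among the 49, 39 (79.6%) had a negative log2 fold change, beside 48.7% of all 14259 genes tested. The median was -0.69, and it was 0.03 over all genes. In 28 members (57.1%), *Psmb11* included, both Mdivi-1 libraries lay below both controls, beside 23.9% of all genes. In 4 members (8.16%) both lay above, beside 26.1% of all genes. The quasi-likelihood test of edgeR called none of the members, and none of all genes (0.00%), at an adjusted p under 0.05. At an unadjusted p under 0.05 it gave 17 members lower (34.7%, beside 7.64% of all genes) and 3 higher (6.12%, beside 8.27% of all genes). DESeq2, the tool named in the methods of the study, called 3 members lower (6.12%, beside 2.92% of all genes) and 2 higher (4.08%, beside 3.41% of all genes), so that its count of higher members was near the share over all genes. The number of members called by either test changed with the library left out, and so did the number over all genes. With each library left out, the median log2 fold change of the members ran from -0.84 to -0.56. Over all genes it ran from -0.07 to 0.21.

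**Figure D1:**
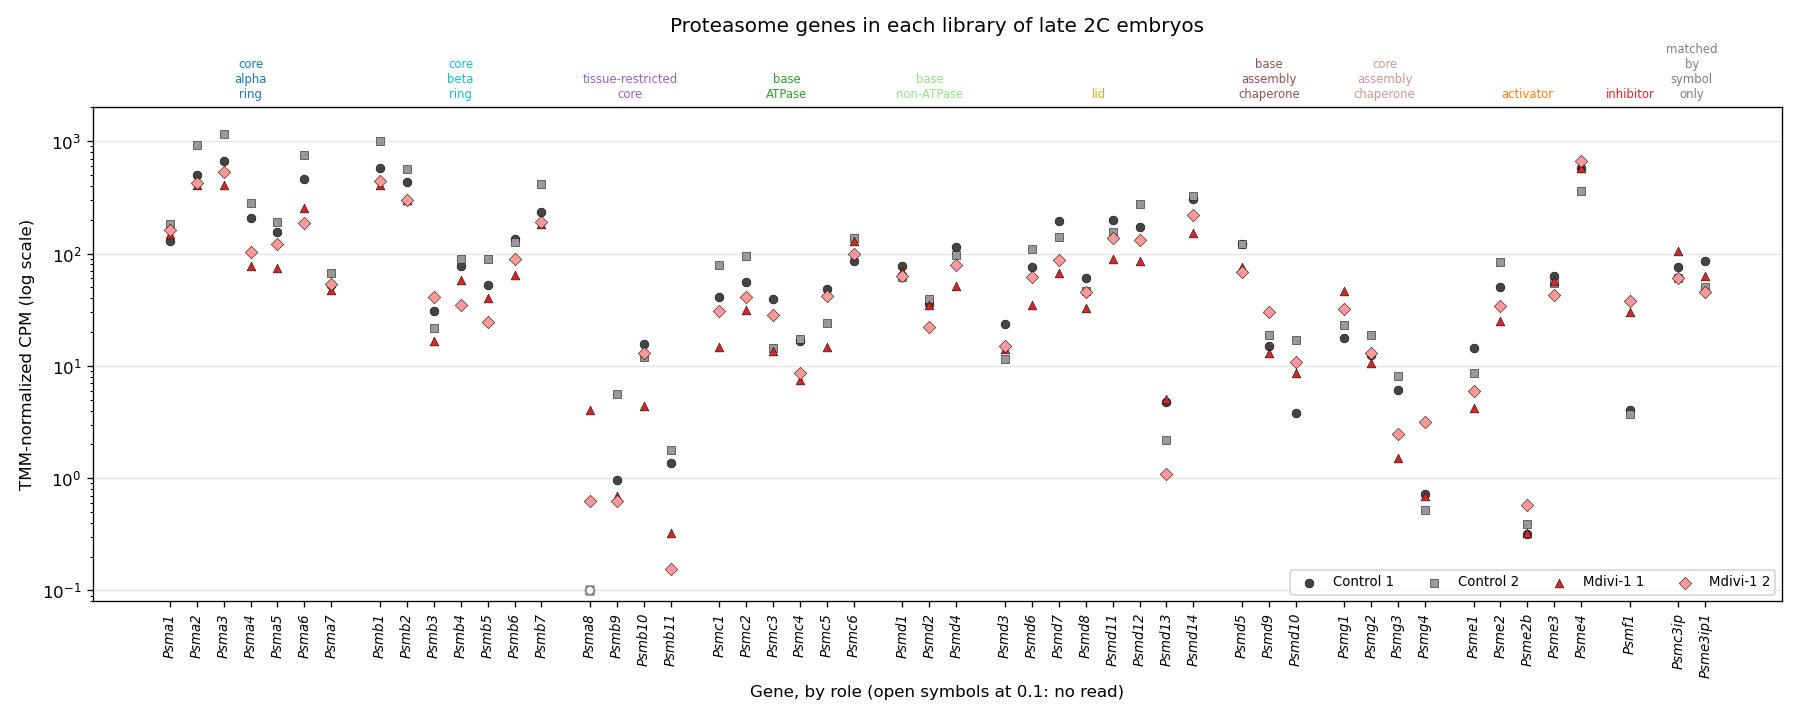
TMM-normalized CPM on a log axis for each of the 50 genes, arranged by role, with 1 symbol for each of the 4 libraries and open symbols where no read was found. Most core and lid genes have both Mdivi-1 symbols under both control symbols, and *Psmf1* has both well above, at 30.004 and 37.7 CPM against 4.05 and 3.74.

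The core held most of the proteasome RNA and most of the difference in its sum. The 14 constitutive core genes summed to 3716 and 5862 CPM in the controls and to 2485 and 2701 CPM with Mdivi-1. Of them, 12 had a negative log2 fold change and 11 (78.6%, beside 23.9% of all genes) had both Mdivi-1 libraries below both controls, with a median log2 fold change of -0.80. At an unadjusted p under 0.05, 9 core genes (64.3%, beside 7.64% of all genes) were lower and 0 higher. Control replicate 2 was above Control replicate 1 in 12 of the 14, by a median of 0.47 on the log2 scale, beside a median of 0.01 over all genes with reads in every library. The core median was -1.05 without Control replicate 1 and -0.55 without Control replicate 2.

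In the α ring, *Psma4* (chr9:54950790-54958030, GRCm38) was at 206, 282, 77.5 and 104 CPM. Its mean was 2.70-fold higher in the controls, with a log2 fold change of -1.43 (SE 0.32) and adjusted p-values of 0.153 by edgeR and 0.00179 by DESeq2. *Psma6* (chr12:55384222-55418454) was at 463, 753, 256 and 185 CPM, with a log2 fold change of -1.46 (SE 0.36) and adjusted p-values of 0.170 by edgeR and 0.00135 by DESeq2. Both genes fell by the DESeq2 test, and neither passed the edgeR test. The DESeq2 call of *Psma4* was lost without Mdivi-1 replicate 1 (adjusted p = 0.279). That of *Psma6* was lost if Mdivi-1 replicate 1 (adjusted p = 0.0590) or Mdivi-1 replicate 2 (adjusted p = 0.163) was left out.

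The other α subunits were not called by either test. *Psma3* was at 672, 1150, 409 and 527 CPM (log2 fold change -0.96), and it had the highest CPM of all members in both control libraries. *Psma5* was at 154, 190, 74.1 and 122 CPM (-0.81) and *Psma2* at 501, 926, 404 and 424 CPM (-0.79), so all 3 had both Mdivi-1 libraries below both controls. *Psma7* was at 52.4, 66.7, 47.6 and 53.5 CPM (-0.24), where the groups overlapped. *Psma1* showed no difference, with 130, 182, 149 and 163 CPM, a log2 fold change of 0.00 (SE 0.31) and Mdivi-1 values that lay between the controls.

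The β ring holds the protease sites. *Psmb5*, which encodes the subunit with chymotrypsin-like activity, was at 52.1, 89.5, 39.9 and 24.8 CPM, with a log2 fold change of -1.13 (SE 0.41). *Psmb6*, which encodes the caspase-like subunit, was at 135, 126, 63.8 and 88.6 CPM (-0.78, SE 0.31). *Psmb7*, which encodes the trypsin-like subunit, was at 235, 412, 183 and 192 CPM (-0.79, SE 0.35). For all 3 catalytic genes the Mdivi-1 libraries lay below the controls, with DESeq2 adjusted p-values of 0.116, 0.180 and 0.167. Of the β subunits without a protease site, *Psmb1* was at 576, 1012, 405 and 441 CPM (-0.91), *Psmb2* at 431, 562, 302 and 299 CPM (-0.73) and *Psmb4* at 77.1, 89.6, 58.1 and 34.6 CPM (-0.85), again with no overlap. *Psmb3* differed from these in that its groups overlapped, at 31.04, 21.7, 16.5 and 40.9 CPM. Part of the sequence of some core genes is shared with other genes: 39.8% of the 75-base words of *Psma5*, 36.8% of *Psmb5*, 33.1% of *Psmb3*, 24.1% of *Psmb7* and 20.9% of *Psma3*. The other genes include unnamed gene models. For *Psmb7* the words are shared with *Nek6*, which overlaps 11.8% of its exonic bases on the opposite strand. *Mir686* overlaps 12.1% of the exonic bases of *Psmb5*, on the same strand. The counts of uniquely mapped reads are therefore less certain for all of these core genes.

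In the base, 8 of 9 genes had a negative log2 fold change, 5 (55.6%, beside 23.9% of all genes) had both Mdivi-1 libraries below both controls, and 2 (22.2%, beside 7.64%) were lower at an unadjusted p under 0.05. The median was -0.40, and it was -0.79 if Control replicate 2 was left out and -1.06 if Mdivi-1 replicate 2 was. Of the ATPases, *Psmc1* was at 40.7, 79.3, 14.7 and 30.5 CPM, with a log2 fold change of -1.41 (SE 0.49) and a DESeq2 adjusted p of 0.0779. *Psmc2* was at 55.7, 94.7, 31.7 and 41.1 CPM (-1.04), and *Psmc4* was at 16.7, 17.5, 7.46 and 8.70 CPM (-1.08). The other ATPases overlapped between the groups: *Psmc3* at 39.3, 14.5, 13.7 and 28.4 CPM, *Psmc5* at 47.9, 23.8, 14.8 and 41.7 CPM, and *Psmc6* at 85.8, 138, 129 and 99.6 CPM. The 6 ATPase proteins form 1 ring, and their RNAs did not show 1 pattern over the libraries. Among the other base genes, *Psmd4*, which encodes a receptor for ubiquitin chains, was at 114, 96.98, 51.3 and 79.7 CPM (-0.69). The scaffold gene *Psmd2* was at 35.3, 39.2, 34.5 and 22.2 CPM (-0.40), below both controls, but Mdivi-1 replicate 1 and Control replicate 1 were nearly equal. The other scaffold gene, *Psmd1*, was at 77.7, 62.4, 70.5 and 62.8 CPM (-0.07), where the groups overlapped.

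The log2 fold change was negative in all 8 lid genes (median -0.70), and 6 (75%, beside 23.9% of all genes) had both Mdivi-1 libraries below both controls. *Psmd7* (chr8:107580381-107588464) encodes the partner of the deubiquitinating subunit and was at 193, 141, 66.8 and 87.9 CPM. Its log2 fold change was -1.11 (SE 0.32), and it fell by the DESeq2 test (adjusted p = 0.0309) but not by edgeR (adjusted p = 0.199). The DESeq2 call was lost without Control replicate 1 (adjusted p = 0.115), Mdivi-1 replicate 1 (0.555) or Mdivi-1 replicate 2 (0.155). *Psmd14*, which encodes the deubiquitinating subunit itself, was at 308, 326, 153 and 219 CPM (-0.77, SE 0.31). *Psmd12* was at 174, 275, 85.3 and 132 CPM (-1.05) and *Psmd6* at 76.5, 111, 34.8 and 61.9 CPM (-0.95), both without overlap. *Psmd11*, at 197, 155, 88.6 and 138 CPM, and *Psmd8*, at 60.3, 46.4, 32.7 and 45.6 CPM, were also lower in both Mdivi-1 libraries, by smaller margins. The groups overlapped for *Psmd3*, at 23.4, 11.5, 14.1 and 15.1 CPM, and for *Psmd13*, which had the lowest level of the lid at 4.73, 2.17, 5.10 and 1.09 CPM. Without Mdivi-1 replicate 2 the lid median was -1.04.

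**Figure D2:**
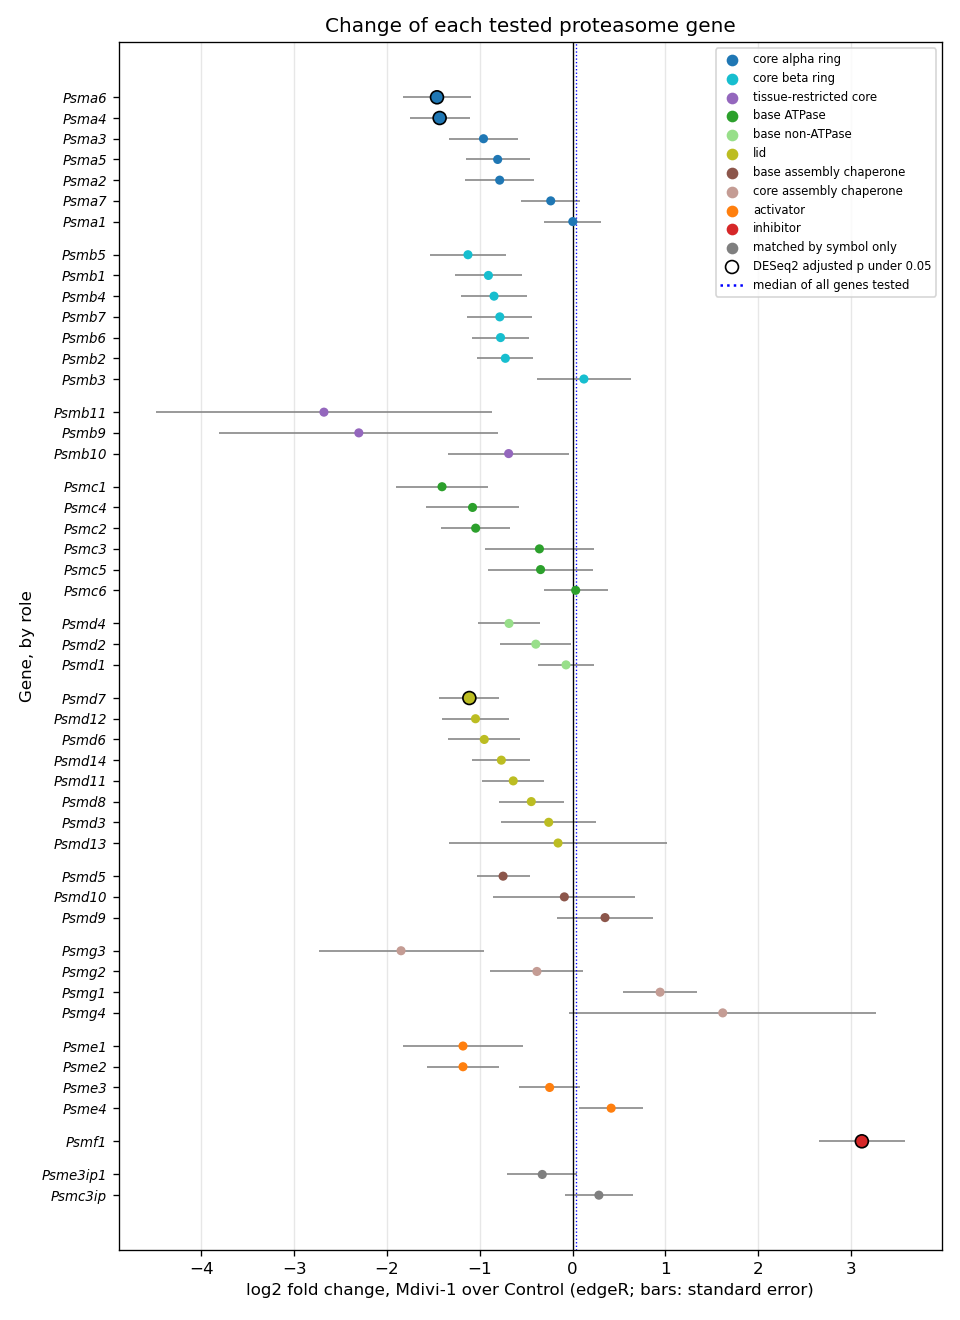
Log2 fold change of Mdivi-1 over Control for 48 tested genes (edgeR, bars show the standard error), arranged by role, with black rings where the DESeq2 adjusted p was under 0.05. *Psma8*, which had no read in either control, is left out. The 28 of 31 core, base and lid genes left of 0 contrast with *Psmf1* at 3.12, and the dotted line marks the median of all genes tested.

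Of the 31 genes of core, base and lid together, 28 were negative, 22 (71.0%, beside 23.9% of all genes) lay lower without overlap, 0 (beside 26.1%) lay higher without overlap, and the median log2 fold change was -0.78. Subunits are present in equal copies in the assembled complex, but their RNAs were not. Levels between genes are compared here as CPM per kb of the principal transcript. The control means of core genes ran from 34.4 (*Psmb3*) to 583 (*Psma6*), those of lid genes from 1.73 (*Psmd13*) to 206 (*Psmd14*), and those of base genes from 11.9 (*Psmc4*) to 79.1 (*Psmd4*). At the top, *Psma6* had 444 and 722 CPM per kb in the controls and *Psmb2* had 502 and 655, so this pair did not differ beyond their spread. The next was *Psmb1*, at 328 and 575, which overlapped with both. In the Mdivi-1 libraries *Psmb2* led with 351 and 349 CPM per kb, above *Psma6* with 246 and 178. The median core gene stood 6.67, 9.98, 8.77 and 6.12 times above the median base gene in the 4 libraries and 2.74, 2.98, 3.63 and 2.66 times above the median lid gene, with no separation of the groups in either ratio. Over the merged exons of each gene in place of the principal transcript, the core exceeded the base 5.13 to 7.01 times.

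The order of the subunits was largely kept between groups. Across the 31 genes, log2 CPM per kb in the Control and Mdivi-1 means had a Pearson r of 0.98 (genes are not independent replicates), and pairs of single libraries had an r between 0.93 and 0.97, replicates included. The log2 fold change had an r of -0.48 with the log2 control level per kb, which shares the control libraries with it, and of 0.14 with log2 transcript length, beside 0.07 with length over all 13253 tested genes that have a principal transcript.

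**Figure D3:**
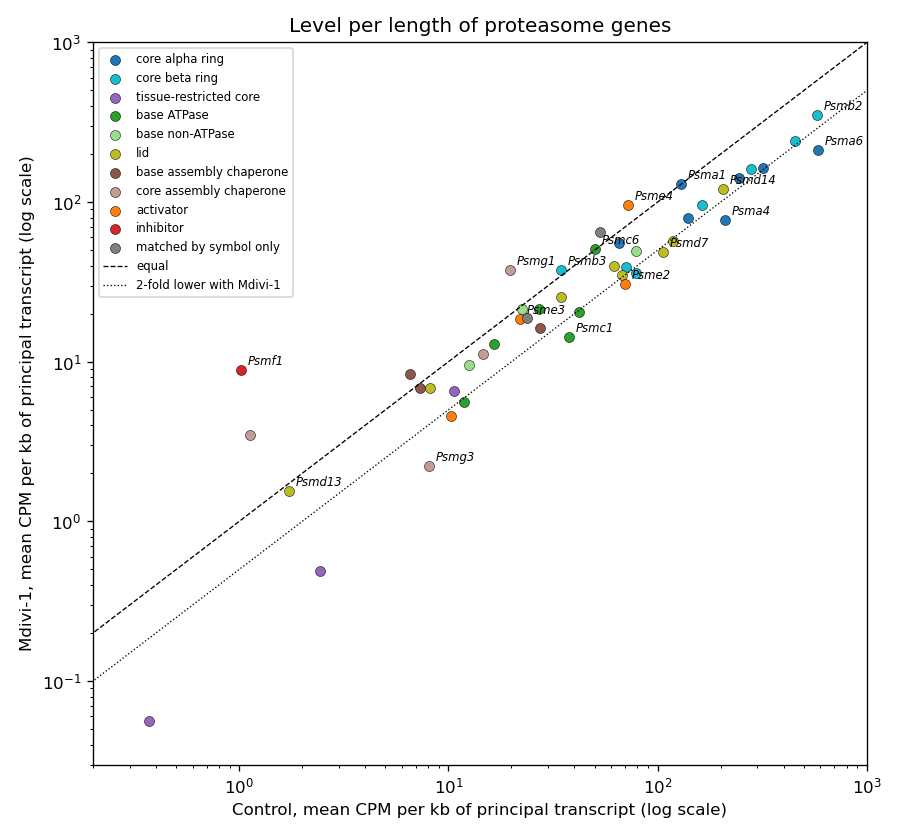
Mean CPM per kb of principal transcript in Control (horizontal, log axis) against Mdivi-1 (vertical, log axis) for the tested genes with reads in both groups, coloured by role. Most core and lid genes lie between the line of equal levels and the line of 2-fold lower levels, and *Psmf1* lies far above both, at 1.02 in Control and 8.89 with Mdivi-1.

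The inhibitor gene *Psmf1* (chr2:151715812-151744186, minus strand) stood apart. It had 89 and 57 counts in the controls and 559 and 723 counts in the Mdivi-1 libraries, or 4.05, 3.74, 30.004 and 37.7 CPM. The lower Mdivi-1 library was thus far above the higher control, and the means (3.90 ± 0.22 and 33.8 ± 5.43 CPM, SD, n = 2 each) differed 8.69-fold. The log2 fold change was 3.12 (SE 0.46). It rose by the DESeq2 test (adjusted p = 1.35e-05), while edgeR gave an adjusted p of 0.136. The DESeq2 call was lost without Mdivi-1 replicate 2 (adjusted p = 0.0689) and held when any of the other libraries was left out. With each of the 4 libraries left out in turn, the edgeR log2 fold change ran from 2.92 to 3.27. PI31, its product, binds and inhibits the purified core and is also known as an adaptor that lets proteasomes be transported. Against the median core gene, on the scale of CPM per kb, *Psmf1* stood at 0.623% and 0.491% in the controls and at 7.71% and 8.01% with Mdivi-1.

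The activators did not follow 1 direction. *Psme4* (chr11:30771726-30880361) encodes PA200, an activator known from nuclei and from the histone exchange of sperm, and was the most abundant regulator at 577, 360, 578 and 672 CPM. Both Mdivi-1 libraries exceeded both controls, but Mdivi-1 replicate 1 and Control replicate 1 were nearly equal, and the order of this pair reversed when DESeq2 size factors replaced TMM or when another filter on low counts was used. Its log2 fold change was 0.42 (SE 0.34, edgeR adjusted p = 0.627). As a share of the median core level per kb, *Psme4* was at 52.1% and 27.7% in the controls and at 87.2% and 83.8% with Mdivi-1. The core level in this share was itself lower with Mdivi-1, at 171, 200, 102 and 124 CPM per kb. *Psme4* was at 89.0, 55.4, 89.1 and 103 CPM per kb. *Psme1* and *Psme2*, which lie 5911 bases apart on chromosome 14 and encode the partners of the interferon-induced activator PA28, both had both Mdivi-1 libraries below both controls. *Psme1* was at 14.4, 8.60, 4.19 and 5.94 CPM (-1.18, SE 0.65), and *Psme2* was at 49.97, 84.1, 25.2 and 33.8 CPM (-1.18, SE 0.39). The values of *Psme2* and *Psme2b* are uncertain, since 46.9% of the 75-base words of the first and 60.2% of the second occur in the other. *Psme3*, which encodes the nuclear activator PA28γ, was at 62.9, 54.8, 56.8 and 42.3 CPM (-0.25), where the groups overlapped, and its share of the core level overlapped as well (13.8%, 10.3%, 20.9% and 12.9%).

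**Figure D4:**
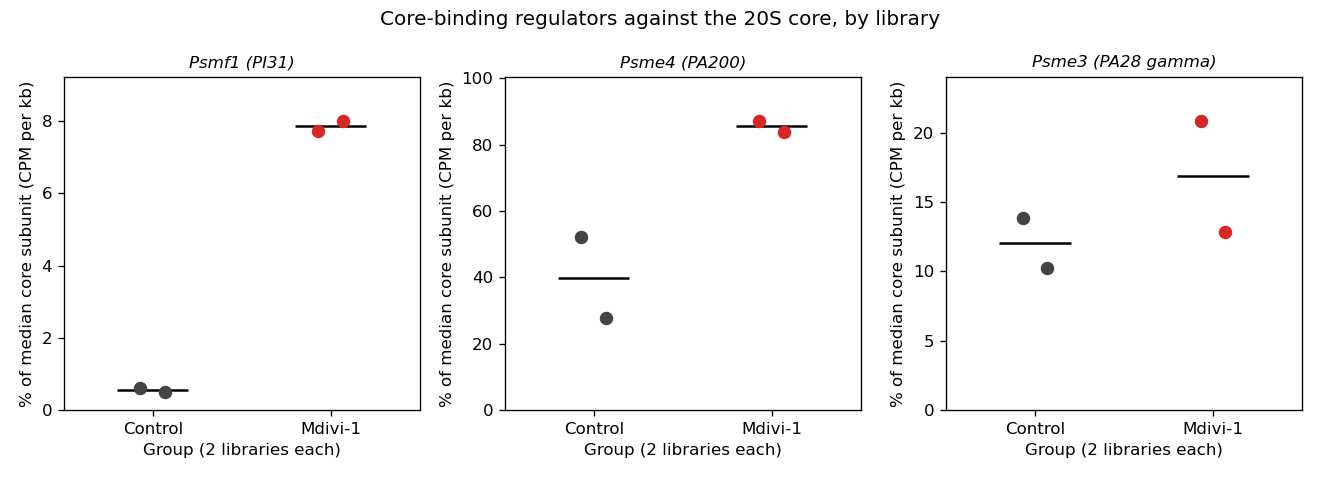
CPM per kb of *Psmf1*, *Psme4* and *Psme3* as a percentage of the median core subunit (vertical axes, each from 0) in the 2 Control and 2 Mdivi-1 libraries, with points for libraries and lines for group means. The groups are separate for *Psmf1* (0.491% to 0.623% against 7.71% to 8.01%) and *Psme4* (27.7% to 52.1% against 83.8% to 87.2%) and overlap for *Psme3*. The shares depend also on the median core level, which was lower in both Mdivi-1 libraries.

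The assembly chaperones were mixed too, with 4 of 7 negative and a median of -0.09. *Psmg1* encodes a member of the chaperone pair that starts the α ring. It was at 17.8, 23.2, 46.6 and 32.1 CPM, higher in both Mdivi-1 libraries, with a log2 fold change of 0.94 (SE 0.40, edgeR adjusted p = 0.301, DESeq2 adjusted p = 0.288). *Psmg2*, which encodes its partner, was at 12.4, 18.6, 10.6 and 13.1 CPM (-0.39) with overlapping groups. In the second pair, *Psmg3* was at 6.14, 8.14, 1.503 and 2.45 CPM (-1.85, SE 0.89), lower in both Mdivi-1 libraries. Its partner *Psmg4* had only 16, 8, 13 and 61 counts, so that 1 library set its mean. Of the chaperones of the base, *Psmd5* was at 120, 122, 75.1 and 68.9 CPM (-0.75, SE 0.29), clearly lower in both Mdivi-1 libraries, while the groups overlapped for *Psmd9*, at 15.2, 19.0, 13.0 and 30.4 CPM, and for *Psmd10*, at 3.78, 17.1, 8.70 and 10.8 CPM.

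Core subunits of particular tissues were scarce. *Psma8*, the α subunit of germ cells in the testis, had 0, 0, 76 and 12 counts. A count of 0 was given a limit of 3 counts per library, which covers read sampling alone and not the spread between libraries. The limit in Control replicate 2 was the higher of the control limits. Mdivi-1 replicate 1 stood at 20.7 times that limit and Mdivi-1 replicate 2 at 3.18 times. These 2 libraries themselves differed, at 4.08 and 0.625 CPM. *Psma8* passed the filter only through the Mdivi-1 libraries, so that it could enter the test only by being higher there. Its DESeq2 adjusted p was 0.0412, and it was 0.106 with Control replicate 1 left out and 0.105 with Control replicate 2 left out. *Psmb9*, the interferon-induced counterpart of *Psmb6*, was at 0.956, 5.64, 0.698 and 0.626 CPM, with most reads in 1 control library. *Psmb10*, the counterpart of *Psmb7*, was at 15.8, 12.1, 4.40 and 12.9 CPM, where the groups overlapped. *Psmb11*, which encodes the subunit of the thymus and lies 3410 bases from *Psmb5*, had 30, 27, 6 and 3 counts. It passed the filter only through the controls, so that it could enter the test only by being lower with Mdivi-1. None of the 3 *Psmb* genes was called. For completeness, *Psmc3ip*, which acts in meiotic recombination, was at 76.4, 60.4, 106 and 60.8 CPM and *Psme3ip1* at 85.5, 50.5, 63.2 and 45.2 CPM, with overlapping groups in both.

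Promoters are shown for 4 members: *Psmf1*, the gene with the clearest rise, *Psmb5* and *Psmb6*, 2 catalytic genes that were lower, and *Psme4*, the most abundant activator. Each window runs from 250 bases before to 50 after the gene start of RefSeq (GRCm38.p6), written 5′ to 3′ on the strand of the gene. Capitals mark TGACNNNGC, the core of the antioxidant response element bound by the transcription factors NRF1 and NRF2, searched on both strands as the only motif. The windows are chr2:151741261-151741560 (minus strand) for *Psmf1*, chr14:54617946-54618245 (minus) for *Psmb5*, chr11:70525107-70525406 (plus) for *Psmb6* and chr11:30771525-30771824 (plus) for *Psme4*.
Psmf1: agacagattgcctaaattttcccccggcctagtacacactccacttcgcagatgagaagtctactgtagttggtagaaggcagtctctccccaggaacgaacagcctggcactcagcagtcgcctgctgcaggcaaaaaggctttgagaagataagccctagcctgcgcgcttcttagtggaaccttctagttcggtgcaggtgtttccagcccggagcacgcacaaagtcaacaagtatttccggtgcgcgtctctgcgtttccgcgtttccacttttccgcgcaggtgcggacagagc
Psmb5: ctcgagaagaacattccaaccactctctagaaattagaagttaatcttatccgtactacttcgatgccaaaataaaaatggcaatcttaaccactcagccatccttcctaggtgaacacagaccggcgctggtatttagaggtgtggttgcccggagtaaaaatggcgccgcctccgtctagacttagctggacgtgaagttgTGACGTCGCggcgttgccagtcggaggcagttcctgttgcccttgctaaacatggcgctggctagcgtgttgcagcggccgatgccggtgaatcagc
Psmb6: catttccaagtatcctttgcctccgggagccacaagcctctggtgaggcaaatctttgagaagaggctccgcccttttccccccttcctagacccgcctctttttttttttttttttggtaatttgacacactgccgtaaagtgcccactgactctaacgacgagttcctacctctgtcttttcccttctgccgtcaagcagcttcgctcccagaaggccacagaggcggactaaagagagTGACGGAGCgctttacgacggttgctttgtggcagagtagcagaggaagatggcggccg
Psme4: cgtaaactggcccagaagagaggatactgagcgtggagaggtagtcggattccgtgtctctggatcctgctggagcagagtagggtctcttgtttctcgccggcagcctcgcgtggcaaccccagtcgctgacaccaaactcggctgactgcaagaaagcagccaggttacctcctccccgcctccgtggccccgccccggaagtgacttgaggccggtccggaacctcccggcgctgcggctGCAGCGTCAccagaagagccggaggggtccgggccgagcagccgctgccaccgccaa
The match begins 47 bases before the start in *Psmb5*, 9 before it in *Psmb6* and 7 before it in *Psme4*, where it is on the opposite strand, and the *Psmf1* window holds none of these letters. That window lies inside the GENCODE span of *Psmf1*, whose 5′ end is at chr2:151744186. The bases before that 5′ end were not searched. Of the 42 members with a promoter in the table, 6 (14.3%) held the motif, and 3781 of all 27025 genes (14.0%) did, so the share among members was near that over all genes. The others were *Psmc6*, *Psmd12* and *Psmd9*. The 6 genes with a match had log2 fold changes from -1.13 to 0.42 (median -0.37), and the 35 tested members without a match from -2.68 to 3.12 (median -0.69), so the ranges overlapped. The lowest value, -2.68, was that of *Psmb11*, which passed the filter only through the controls.

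Genes that work with the proteasome were read from 4 lists. Of 12 proteasome partners, 7 had a negative log2 fold change, 2 (16.7%, beside 23.9% of all genes) had both Mdivi-1 libraries below both controls and 3 (25.0%, beside 26.1%) had both above, so neither share exceeded that over all genes. *Pomp*, which encodes the maturation protein of the core, was at 144, 242, 48.1 and 78.5 CPM, and it fell by DESeq2 (adjusted p = 0.00279, log2 fold change -1.61, SE 0.39), a direction shared with 12 of the 14 core genes. *Ecpas*, which encodes an adaptor of the assembled proteasome, was at 84.1, 59.1, 148 and 149 CPM, and it rose by DESeq2 (adjusted p = 0.0497, log2 fold change 1.05, SE 0.31). The *Pomp* call was lost without Control replicate 2 (adjusted p = 0.0688) or Mdivi-1 replicate 1 (0.308), and the *Ecpas* call without Control replicate 2 (0.173), Mdivi-1 replicate 1 (0.502) or Mdivi-1 replicate 2 (0.412). *Akirin2*, needed for import of proteasomes into the nucleus, was at 77.9, 133, 181 and 174 CPM (0.76), and *Usp14*, a deubiquitinase bound to the base, was at 125, 83.3, 52.2 and 84.7 CPM (-0.60). *Paaf1* was not analysed here.

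Of 4 genes that supply or activate ubiquitin, 3 were negative (beside 48.7% of all genes) and 2 had both Mdivi-1 libraries below both controls (beside 23.9%). The negative genes include *Uba6*, which showed no difference (log2 fold change -0.00035). *Rps27a*, which encodes ubiquitin fused to a ribosomal protein, was at 287, 530, 204 and 197 CPM (-1.03, SE 0.36, DESeq2 adjusted p = 0.0515), lower in both Mdivi-1 libraries. Of the activating enzyme genes, *Uba1* was at 73.5, 84.3, 52.7 and 68.3 CPM (-0.38), also below, and *Uba6* at 49.01, 50.9, 40.2 and 59.6 CPM, where the groups overlapped. The polyubiquitin gene *Ubb* was at 791, 962, 867 and 972 CPM (0.07), again with overlap. Of 11 genes for substrate shuttles and the p97 segregase, 6 were negative, 2 (18.2%, beside 23.9% of all genes) lay below without overlap and 1 (9.09%, beside 26.1%) lay above, so neither share exceeded that over all genes. The gene above was the shuttle gene *Rad23b*, chosen after its values were seen, at 40.3, 38.4, 49.2 and 52.2 CPM (0.36). Those below were the shuttle gene *Ubqln1*, at 85.8, 88.1, 67.4 and 68.5 CPM (-0.36), and the p97 cofactor gene *Ufd1*, at 14.9, 23.2, 11.1 and 9.64 CPM (-0.88). The groups overlapped for 2 other p97 cofactor genes, *Nsfl1c* at 11.2, 29.1, 9.07 and 11.6 CPM (-0.96) and *Faf2* at 25.7, 10.96, 9.61 and 13.1 CPM (-0.69). Neither test called any gene of these 2 lists.

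Of 9 regulators of proteasome genes, 6 (66.7%, beside 26.1% of all genes) had both Mdivi-1 libraries above both controls, 1 (11.1%, beside 23.9%) had both below, and the median log2 fold change was 0.75. Neither test called any of them. *Ngly1*, which encodes the enzyme that removes glycans from the transcription factor NFE2L1, was at 6.64, 12.9, 32.3 and 23.7 CPM (1.52, SE 0.50, DESeq2 adjusted p = 0.112). *Nfe2l3*, a relative of NFE2L1, was at 2.68, 3.22, 6.49 and 11.3 CPM (1.59, SE 0.77). For the subunits of the factor NF-Y, *Nfya* was at 16.02, 23.4, 40.4 and 33.8 CPM (0.91) and *Nfyc* at 65.8, 70.0, 44.3 and 47.2 CPM (-0.57). For this pair the groups were separate, in opposite directions. The groups overlapped for *Nfyb*, another NF-Y subunit gene chosen after its values were seen, at 251, 420, 265 and 271 CPM (-0.32).

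**Figure D5:**
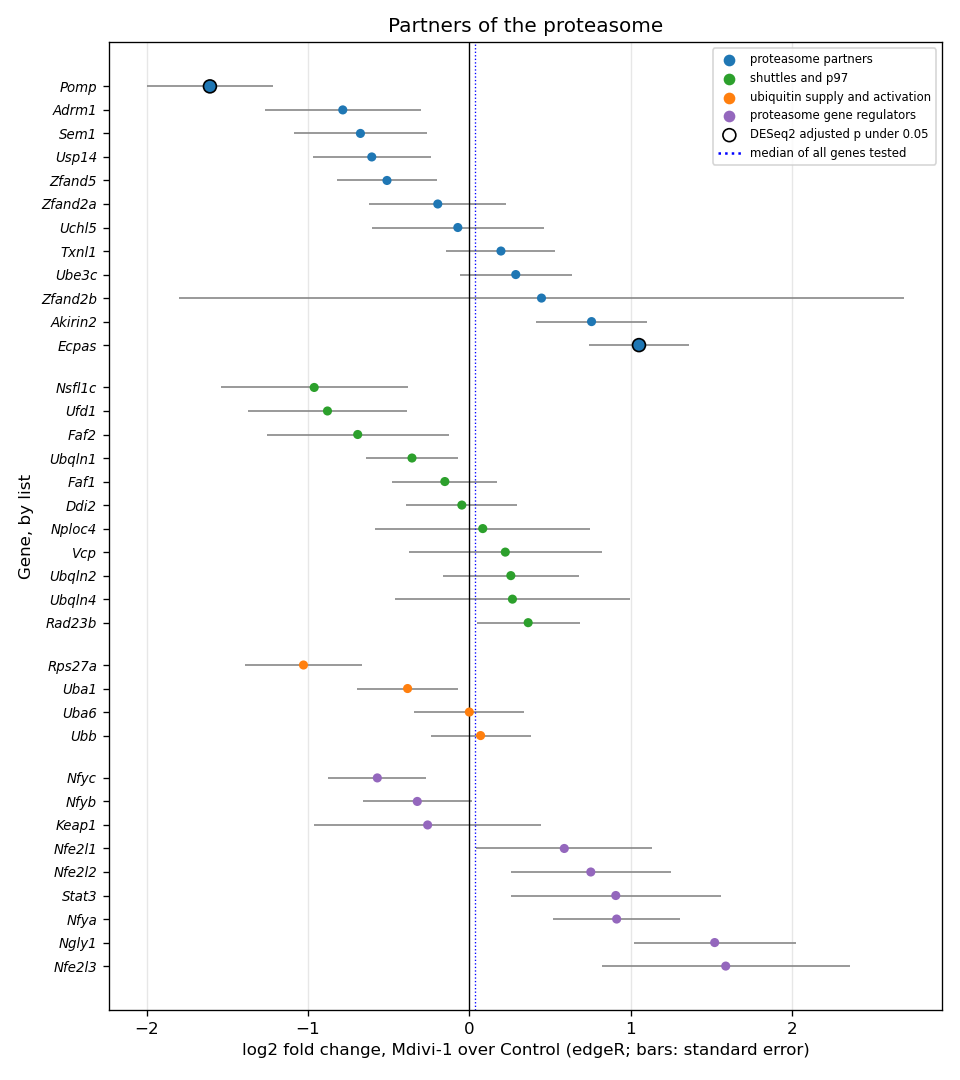
Log2 fold change of Mdivi-1 over Control (edgeR, bars show the standard error) for the 36 tested genes of 4 lists that surround the proteasome, with black rings where the DESeq2 adjusted p was under 0.05. Among the partners, *Pomp* lies lowest and *Ecpas* highest, and both carry a ring.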

How the data were processed

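Late 2C embryo RNA was amplified by Smart-Seq2, which keeps no strand and has no molecular identifiers. The authors removed adapters with cutadapt 1.16, aligned with STAR and took its count of unique reads per GENCODE gene. The submitters' processing notes name mm10. The deposited counts were used as they stand. The deposited signal (counts after division by size factors) was not used, nor were the log2 fold changes, standard errors, test scores and p-values of the authors' own comparison.

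In R 4.3.3 with edgeR 4.0.16, filterByExpr (minimum count 10) left 14259 of 26022 genes. After TMM normalisation the two-sided quasi-likelihood test was run, and p-values were adjusted by Benjamini-Hochberg over every gene tested. Standard errors were worked back from that test. DESeq2 1.42.0 and limma 3.58.1 gave alternatives, and the fitting was tested on simulated data. A group is "above" or "below" where both Mdivi-1 libraries lie above or below both controls in CPM. Lengths and coordinates are from GENCODE M21 on GRCm38, since the coordinates in the table matched it for 0 of 50 members. Words of 75 bases were counted in its transcripts.

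The 2 libraries of a group differed far beyond sampling noise (chi-square per degree of freedom 115 for Control and 52.9 for Mdivi-1). Same-numbered libraries did not deviate together (correlation 0.0081). The labels give no batch. The members and lists were chosen with earlier results of these data known. Named were the regulators, members with an unadjusted edgeR p or a DESeq2 adjusted p under 0.05, members with the highest and lowest level per kb in a class, catalytic subunits, members below the filter, and in each list the genes of smallest edgeR p (at most 4). Other members are given for completeness and were chosen after their values were seen. Protein sequences were not used here. Some genes of the ubiquitin and shuttle lists are not reported here.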

Additional observations from a re-analysis of the deposited data

How the results depend on the processing

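With 2 libraries a group and a biological coefficient of variation of 0.66, the spread between libraries limits the calls more than depth does. Counts of calls depended on the test. By edgeR, 0 members were higher and 0 lower at an adjusted p under 0.05, as over all genes. Without the low-count filter there were 1 and 4, beside 455 and 364 of all 18702 genes. The other tests covered 14259 genes. DESeq2 gave 2 and 3 members, beside 467 and 400 of all genes, and limma-voom 1 and 2, beside 125 and 77. The likelihood ratio test gave 2 and 3, beside 512 and 358. Leaving out each library gave 0 to 1 higher and 0 to 9 lower by edgeR and 0 to 1 higher and 0 to 12 lower by DESeq2, with the highest counts of lower members without Control replicate 1. At an unadjusted p these ranges were 1 to 3 higher and 4 to 18 lower, and scaling by library totals alone left 10 lower. Over all genes, too, both tests called the most lower genes without Control replicate 1. The high counts of lower members there thus came with a general rise in calls. No share over all genes is given here for the unadjusted counts. In fits without a library, the lone library of its group is assumed to vary like the others. DESeq2 without each library and the alternatives for single genes other than *Psmf1* were chosen after seeing the data.

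The median log2 fold change of the members was -0.59 with library totals, which moved the median of all genes from 0.03 to 0.14. With each library left out it ran from -0.84 to -0.56 for the members, from -1.05 to -0.55 for the core, from -1.06 to -0.41 for the base and from -1.04 to -0.57 for the lid. Scaling by library totals left 25 members below both controls, in place of 28. With a minimum of 1 CPM in 2 libraries, 2 members were above, since *Psma8* no longer passed and the groups overlapped for *Psme4*. *Psmf1* passed the threshold without the low-count filter (3.11), with DESeq2 (3.11), limma-voom (3.09) and the likelihood ratio test (3.12), and ranged from 2.92 to 3.27 with each library left out. With the replicate block the counts were 0 higher and 0 lower, *Psmf1* was at 3.11 (adjusted p = 0.0991) and the median at -0.72; the numbers did not pair the libraries.

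Among the alternatives run, signs reversed in 12 members, whose log2 fold changes lay between -0.36 and 0.35. *Psmd10* was at 0.15 with library totals, 0.42 with limma-voom and 0.27 with the replicate block, *Psmd1* at 0.024 with library totals and *Psmb3* at -0.021 with limma-voom. *Psma1* was at -0.0139 with DESeq2 size factors, -0.0138 with the DESeq2 test, -0.0135 with the 1 CPM minimum and at -0.0044 without the filter. With each library left out, *Psmc3* ran from -0.99998 to 0.53, *Psmc5* from -1.30 to 0.24, *Psmc6* from -0.28 to 0.39, *Psmd10* from -0.81 to 1.34, *Psmd9* from -0.41 to 0.83, *Psmd1* from -0.25 to 0.087, *Psma1* from -0.23 to 0.24, *Psmb3* from -0.70 to 0.63, *Psmd13* from -1.66 to 0.54, *Psmd3* from -0.71 to 0.34, *Psmc3ip* from -0.18 to 0.61 and *Psme3ip1* from -0.68 to 0.093. Of the list genes, *Uba6* was at 0.12 with library totals and ran from -0.33 to 0.25 with each library left out, *Ubb* from -0.072 to 0.19 and *Faf2* from -1.2 to 0.042. The cause was not tested. Under the alternatives that keep all libraries, 46 (of 47 tested) to 49 members kept their direction.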
